A study of Mus musculus with 3 samples.

Results

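Among nuclei sorted from mouse dorsal skin for a melanocyte-lineage label, 630 of 12348 (5.10%) were chosen by open chromatin at 10 genes known from Schwann cells and other glia. The genes were Mbp, Gpr37l1, Fa2h, Gal3st1, Erbb3, Cadm4, Foxd3, Cnksr2, Pex5l and Kcnh8. A nucleus was selected on 3 or more open features (accessible regions with a count above 0) that overlapped the gene body or 2 kb at either end, and on a share of its open features there at least 2 times that of all nuclei pooled, which was 0.0507%. The label of a Schwann or glial population cannot be checked on these 10 genes, since they chose the nuclei. When the nuclei were clustered on all other regions, without the 154 features that the rule reads, 222 of the 630 (35.2%, 95% interval 31.5 to 39.1%) fell in the 1 cluster named Schwann-like, a name that rests on the same marker list, and 408 fell in other clusters. The 630 are therefore called glial-marker nuclei here, and the 222 in-cluster and the 408 out-of-cluster nuclei are given apart.

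Accessible DNA was read nucleus by nucleus with ATAC-seq, which uses a transposase that cuts open chromatin and tags the ends. All mice carried Dct-rtTA and Tre-H2B-GFP, so that doxycycline switched on a histone-GFP fusion in cells using the promoter of Dct, a melanocyte pigment enzyme, and GFP-positive nuclei were sorted. Every group received doxycycline for 5 days. Telogen (12 mice, resting hair follicles) had no other treatment, anagen (8 mice, growing follicles) followed depilation with Nair cream, and UVB (24 pooled mice) followed 3 exposures over 1 week at 2.2 mJ/cm2. The mice were 7 weeks old in the treatment text and 8 weeks old in the sample characteristics. Telogen and anagen came from 1 library. UVB came from 1 pool of mice with 2 technical replicates, which the files do not separate. Whether these replicates were separate libraries is not stated. Each condition is thus 1 sample of pooled animals, no p-value can be computed between conditions, and the intervals below cover counting error only.

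Schwann cells are the glia of peripheral nerves and share their neural crest origin with melanocytes. Myelinating Schwann cells wrap single axons in a lipid-rich sheath held together by proteins such as Mbp, while non-myelinating cells enclose several small axons. In skin they line the nerves that reach hair follicles and the epidermis, and Sox10 is used by both the glial and the melanocyte lineage.

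Promoter sequences are shown for a few genes whose promoter feature differed between the groups. Of the glial and lineage genes examined, the 4 promoters with the highest ratio of in-cluster over remaining nuclei, among those open in at least 20 in-cluster nuclei, belonged to Aatk, Cmtm5, Gal3st1 and Sox2. The Aatk window lies at an annotated start inside the gene, not at the outermost start. They are shown with the promoter of Pa2g4, whose feature lies within the Erbb3 window and was counted by the rule, and with the promoter of Tyr, the rate-limiting enzyme of melanin synthesis, as the melanocyte contrast. Each is the 250 bases before the annotated start, 5′ to 3′, from RefSeq on GRCm38.p6. Capitals mark ACAAAG, the core letters bound by SOX proteins, or CATGTG, an E-box of the kind bound by MITF, read on both strands.
Aatk promoter, chr11:120017155-120017404, minus strand: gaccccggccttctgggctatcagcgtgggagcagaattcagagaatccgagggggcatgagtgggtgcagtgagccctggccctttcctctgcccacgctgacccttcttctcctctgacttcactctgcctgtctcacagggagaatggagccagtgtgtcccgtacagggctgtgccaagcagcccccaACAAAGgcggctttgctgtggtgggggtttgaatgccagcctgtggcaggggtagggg
Cmtm5 promoter, chr14:54936220-54936469, plus strand: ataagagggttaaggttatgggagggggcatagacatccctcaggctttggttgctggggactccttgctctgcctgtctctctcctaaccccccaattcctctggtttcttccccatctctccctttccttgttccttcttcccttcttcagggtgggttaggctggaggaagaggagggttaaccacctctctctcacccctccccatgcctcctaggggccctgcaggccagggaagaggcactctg
Gal3st1 promoter, chr11:3983386-3983635, plus strand: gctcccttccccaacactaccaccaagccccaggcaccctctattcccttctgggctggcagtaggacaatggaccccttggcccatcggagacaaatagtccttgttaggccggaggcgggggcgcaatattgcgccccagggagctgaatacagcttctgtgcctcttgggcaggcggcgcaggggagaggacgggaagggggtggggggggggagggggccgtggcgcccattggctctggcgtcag
Sox2 promoter, chr3:34649745-34649994, plus strand: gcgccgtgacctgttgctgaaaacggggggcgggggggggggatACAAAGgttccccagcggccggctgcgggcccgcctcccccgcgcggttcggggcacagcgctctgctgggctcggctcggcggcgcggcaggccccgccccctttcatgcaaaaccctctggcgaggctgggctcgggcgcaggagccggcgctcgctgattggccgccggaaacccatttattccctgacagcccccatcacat
Pa2g4 promoter, chr10:128565935-128566184, minus strand: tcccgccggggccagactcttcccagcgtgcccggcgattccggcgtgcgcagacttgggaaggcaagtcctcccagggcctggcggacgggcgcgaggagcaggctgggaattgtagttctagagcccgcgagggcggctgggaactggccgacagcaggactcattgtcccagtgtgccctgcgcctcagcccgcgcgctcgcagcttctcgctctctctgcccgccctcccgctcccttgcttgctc
Tyr promoter, chr7:87493513-87493762, minus strand: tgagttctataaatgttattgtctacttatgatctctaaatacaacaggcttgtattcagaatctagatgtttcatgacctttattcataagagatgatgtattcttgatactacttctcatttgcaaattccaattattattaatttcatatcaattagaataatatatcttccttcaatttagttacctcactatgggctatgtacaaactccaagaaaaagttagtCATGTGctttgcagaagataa

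The Aatk promoter feature was open in 36 of the 222 in-cluster nuclei and in 0 of the 408 out-of-cluster nuclei, which allows a share of up to 0.735%. It was open in 4 of 1763 melanocyte-marker nuclei and 27 of 9955 remaining nuclei. Aatk encodes a membrane-associated kinase of nervous tissue. Cmtm5, a small membrane protein of myelinating glia, had an open promoter feature in 22 in-cluster, 0 out-of-cluster, 13 melanocyte-marker and 23 remaining nuclei. The feature at Gal3st1, the sulfotransferase that makes the myelin lipid sulfatide, was open in 28, 7, 7 and 33 nuclei in the same order, and that at Sox2, a factor of immature and repair Schwann cells, in 25, 1, 10 and 65. Gal3st1 is a marker of the glial rule, which counted this feature. Its counts and its place among the 4 promoters were thus set in part by the selection. Tyr showed the other pattern, with 2 in-cluster, 11 out-of-cluster, 101 melanocyte-marker and 66 remaining nuclei. Tyr is among the markers that chose the melanocyte-marker nuclei, and the remaining nuclei hold none that met that choice. The Tyr contrast was thus set in part by the selection and is a description. The Pa2g4 feature, over the start of a widely used growth-regulating gene, was open in 55 in-cluster, 186 out-of-cluster, 230 melanocyte-marker and 1073 remaining nuclei. It was thus open in 45.6% of the out-of-cluster nuclei against 24.8% of the in-cluster nuclei and 10.8% of the remaining ones, a difference that the rule itself helped to set. ACAAAG occurred once each in the Aatk and Sox2 windows and in 16.5% of all 32851 promoters in the table, and CATGTG once in the Tyr window and in 12.3% of all promoters. These are matches of letters and not evidence of binding. The Sox2 and Pa2g4 windows held 27 and 24 CG pairs, against 0 in the Cmtm5 and Tyr windows.

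The selection came mainly from a pair of genes. Mbp and Erbb3 gave 66.6% of the open calls (a feature open in a nucleus counts as 1 call) that the 630 nuclei had in the marker windows. Their part was 44.5% in the in-cluster nuclei and 81.6% in the out-of-cluster nuclei, beside 76.0% in the remaining nuclei. Erbb3, the receptor through which axonal neuregulin acts on Schwann cells, had an open feature in 65.3% of in-cluster, 77.7% of out-of-cluster, 27.6% of melanocyte-marker and 17.3% of remaining nuclei. For Mbp, the basic protein that compacts myelin, those shares were 64.4%, 66.7%, 7.09% and 13.4%. These shares describe the selection and support nothing.

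Each of the other 8 genes was open in a larger share of in-cluster than of out-of-cluster nuclei. Kcnh8, a voltage-gated potassium channel, had an open feature in 38.7% of in-cluster and 9.31% of out-of-cluster nuclei. For Cadm4, the adhesion molecule on the Schwann side of the axon contact, the shares were 35.1% and 9.80%, and for Pex5l 29.3% and 5.88%. Fa2h, which hydroxylates the fatty acids of myelin lipids, was open in 26.1% and 6.62%. Cnksr2, a scaffold protein, was open in 25.7% and 4.90%, Gpr37l1, a glial receptor, in 21.6% and 3.68%, and Gal3st1 in 19.4% and 6.62%. Foxd3, a neural crest factor, differed least of the 8 at 21.6% and 14.0%, and was open in 7.88% of melanocyte-marker nuclei.

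**Figure D1:**
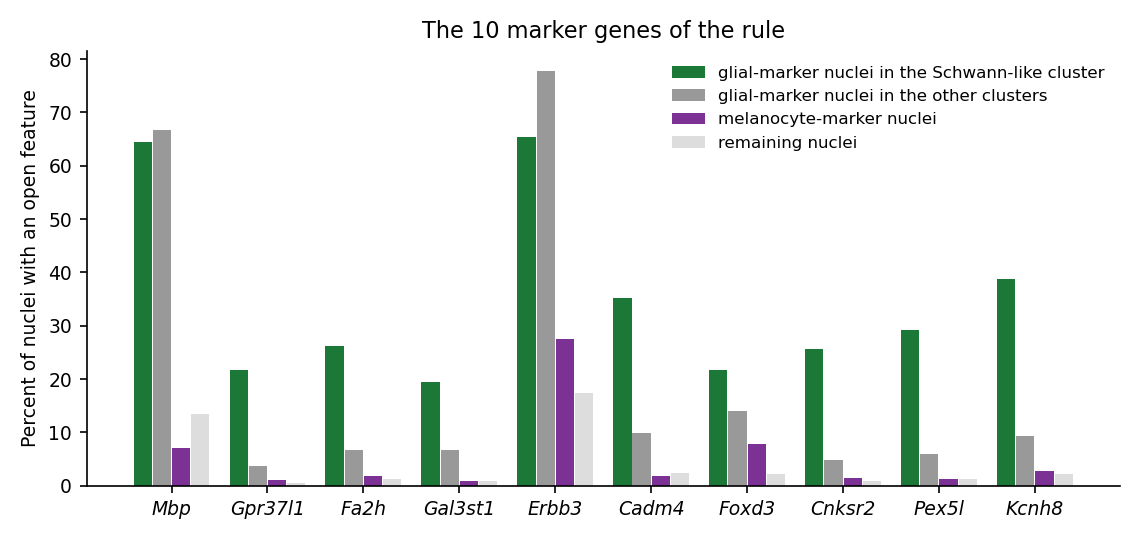
Percent of nuclei with at least 1 open feature in the window of each of the 10 marker genes (y axis), for the 222 in-cluster glial-marker nuclei, the 408 out-of-cluster ones, 1763 melanocyte-marker nuclei and 9955 remaining nuclei, conditions pooled. Mbp and Erbb3 are open in most nuclei of both glial-marker groups, while the other 8 genes are open more often in the in-cluster group.

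Within these genes single features also differed between the groups. The feature at chr18:82545294-82545794, inside Mbp, was open in 56 in-cluster and 7 out-of-cluster nuclei, whereas the one at chr18:82489112-82489612, also inside Mbp, was open in 0 and 46. In Cadm4 a feature inside the gene at chr7:24485260-24485760 was open in 47 and 3 nuclei, and the feature over its promoter in 19 and 20. Inside Kcnh8 the feature at chr17:52785940-52786440 was open in 31 and 5, and inside Pex5l the one at chr3:33089908-33090408 in 30 and 1. In Erbb3 the feature at chr10:128586456-128586956, inside the gene, was open in 64 in-cluster, 80 out-of-cluster, 96 melanocyte-marker and 186 remaining nuclei. Coordinates are on mm10 as the files give them, and the tables used here hold no exons.

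The clusters were built without these features, but the cluster was named by its level at the same genes, so the following values describe it and support nothing. Across all 629 nuclei of the Schwann-like cluster, selected or not, levels (CPM, open calls per 1000000 open calls of a set of nuclei) were higher than in all other nuclei at each of the 10 genes. The ratio was 29.0 (20.8 to 40.6) for Gpr37l1, 17.1 (12.9 to 22.6) for Cnksr2, 14.7 (10.9 to 19.8) for Gal3st1, 12.0 (9.21 to 15.4) for Fa2h and 11.4 (9.27 to 14.1) for Cadm4. It was lowest for Foxd3 at 4.11 (3.19 to 5.22), Mbp at 3.13 (2.78 to 3.50) and Erbb3 at 2.10 (1.86 to 2.36). The 10 genes leading this cluster by fold, among genes with at least 200 counts, were Cnksr2, Pex5l, Kcnh8, Fa2h, Cadm4, Prima1, Ghrh, Prdm16, Btbd16 and Kcnj10.

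Membership in the cluster followed the number of open marker features. It was 2.05% of nuclei with 0 open features, 11.2% with 2, 16.9% (13.6 to 20.7%) with 3, 33.6% (24.9 to 43.3%) with 5 and 53.5% (37.7 to 68.8%) with 8 or more. Of the 630 selected nuclei 291 had exactly 3 features, and the highest number was 18. The median number of open features over the whole genome was higher as well, from 766 at 0 marker features to 5638 at 8 or more, and the part of depth in this trend was not tested. Just inside the threshold the lowest share ratio was 2.01, and 293 nuclei with 3 or more marker features stayed below 2 times, the highest of them at 2.00. Conversely, 405 of the 629 cluster nuclei had fewer than 3 open marker features and were not selected. Their cluster mates that were not selected had a median of 679 open features, against 1423 in the in-cluster nuclei and 2035.5 in the out-of-cluster nuclei.

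The 408 out-of-cluster nuclei were spread over the other clusters. The largest parts were 110 and 37 nuclei in a pair of clusters with melanocyte markers at 1.81 and 1.45 times the level of all nuclei, and 102 and 35 in a pair with keratinocyte markers at 3.21 and 2.54 times. Another 38 and 32 lay in clusters with fibroblast markers at 2.92 and 2.73 times, 27 in a cluster with myeloid and Langerhans markers at 6.24 times, 14 in one with endothelial markers at 3.28 times, and 13 in one with melanocyte markers at 2.65 times. Of the 630 nuclei, 75 also met the same rule on 14 melanocyte markers, 12 of them in the cluster. No doublet caller was run. The barcodes of 51 glial-marker nuclei also occurred in another condition, and 1 barcode was shared by glial-marker nuclei of a pair of conditions.

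Glial-marker nuclei made up 5.14% of telogen nuclei (105 of 2042, 4.22 to 6.19%), 2.74% of anagen nuclei (103 of 3753, 2.25 to 3.32%) and 6.44% of UVB nuclei (422 of 6553, 5.86 to 7.06%). The anagen share was the lowest. Its interval, which covers counting error over nuclei only, overlapped neither of the others, while those of telogen and UVB overlapped. In-cluster nuclei made up 1.37% (28 nuclei, 0.913 to 1.98%), 0.666% (25 nuclei, 0.432 to 0.982%) and 2.58% (169 nuclei, 2.21 to 2.99%). The UVB share of in-cluster nuclei was the highest, but each condition is 1 pooled sample, so the spread between animals was not measured. They were 26.7% of the telogen, 24.3% of the anagen and 40.0% of the UVB glial-marker nuclei, so the selected nuclei were not the same mixture in the 3 conditions. Shares are of GFP-sorted nuclei, in which melanocyte-marker nuclei made up 4.36%, 18.1% and 15.2%. Median open features per nucleus were similar in all nuclei (933.5, 897 and 953) and higher in glial-marker nuclei (2021, 1622 and 1803.5).

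**Figure D2:**
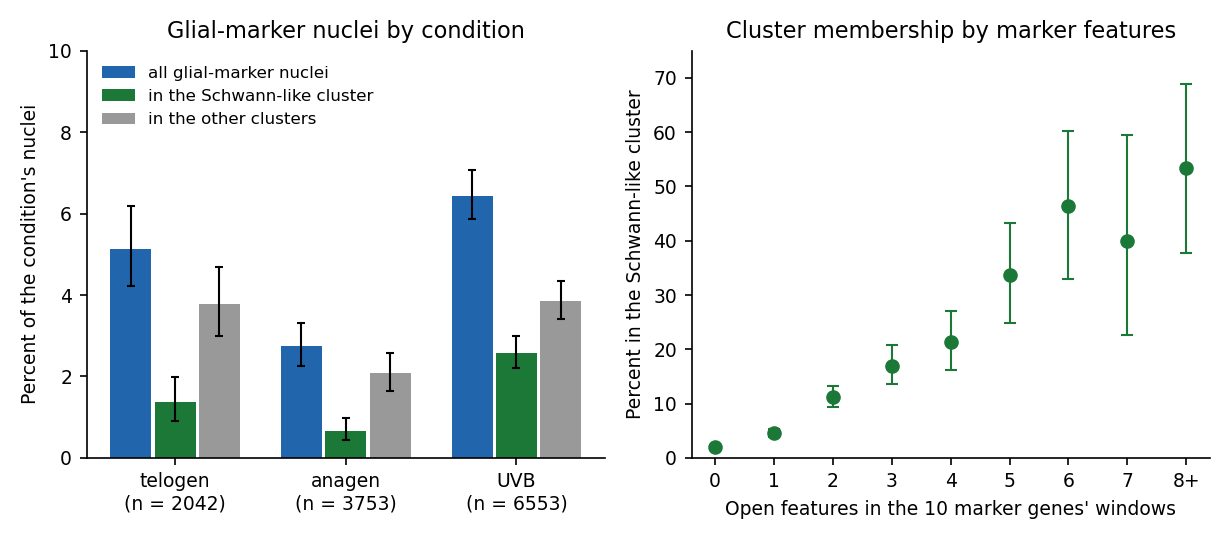
Left, percent of each condition's nuclei (y axis) that were glial-marker nuclei, in total and split by cluster, with 95% Clopper-Pearson intervals for counting error. Right, percent of nuclei in the Schwann-like cluster (y axis) by the number of open features in the marker windows (x axis), with the same intervals, from 2.05% at 0 features to 53.5% at 8 or more.

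The UVB nuclei were unevenly spread over the tag numbers in their barcode names, which the labels do not explain. Among the 439 UVB nuclei of tag number 24, 18.5% were glial-marker nuclei and 34.4% lay in the Schwann-like cluster, and among the 152 of tag number 23 these shares were 13.8% and 22.4%. The 2934 nuclei of tag number 19 had 4.60% and 1.50%. Over the 15 UVB tag numbers with at least 50 nuclei the median share in the cluster was 7.36%, against 3.08% over 10 telogen and 2.99% over 7 anagen tag numbers. Without tag numbers 23 and 24 the UVB share of glial-marker nuclei was 5.54%, beside 5.44% in telogen. Without tag number 19 the UVB share was 7.85%.

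Myelin sheath genes were more open in the in-cluster nuclei than elsewhere. Over the windows of 18 genes (none of them a marker of the rule), the level was 1403 CPM in the in-cluster, 511 in the out-of-cluster, 584 in melanocyte-marker and 489 in remaining nuclei. The ratio of in-cluster over remaining nuclei was 2.87 (2.62 to 3.13), and that of out-of-cluster over remaining nuclei was 1.04 (0.95 to 1.15). Of the 18 genes 12 were at least 2 times higher in the in-cluster nuclei, where 6.59% of all genes with at least 30 open calls were. The median log2 ratio over the list was 1.97, against -0.06 over all genes. The clusters were made from these same regions, so this is a description of the cluster. For all 630 nuclei 10 of the 18 genes were at least 2 times higher than in remaining nuclei, against 1.68% of all genes, and the list ratio was 1.59 (1.48 to 1.69).

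Cnp, a myelin enzyme (chr11:100574909-100591875), had 179, 145 and 110 CPM in telogen, anagen and UVB in-cluster nuclei, against 13.3, 16.8 and 15.7 in melanocyte-marker nuclei of the same conditions. All 3 values lay above all 3 melanocyte values, and the ratio over remaining nuclei was 5.88 (4.23 to 8.02). Mag, the adhesion protein that faces the axon (chr7:30899175-30914922), had 22.3, 58.1 and 40.8 against 0, 3.57 and 1.75, with 16 calls in all in the in-cluster nuclei. Pmp22, whose dosage matters for peripheral myelin, had 245, 320 and 270 against 160, 79.5 and 144. For this gene too the groups did not overlap, though in-cluster and melanocyte-marker nuclei of telogen had only 44815 and 74917 open calls in all. Cldn19, a tight junction protein of Schwann cells, was 15.0 times (7.90 to 27.3) and Mal, a proteolipid of compact myelin, 9.97 times (6.98 to 14.0) the level in remaining nuclei. Tspan2 at 0.926 (0.536 to 1.50) and Gjb1, the connexin of Schwann cells, with 1 call in the in-cluster nuclei, did not stand out.

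Schwann lineage genes showed the largest list ratio. Their level over 21 genes was 2895 CPM in in-cluster, 784 in out-of-cluster, 1208 in melanocyte-marker and 814 in remaining nuclei. In-cluster nuclei exceeded the remaining nuclei 3.56 times (3.34 to 3.78), with 14 of the 20 genes that had enough calls at least 2 times higher (6.59% of all genes) and a median log2 ratio of 1.74. Out-of-cluster nuclei were at 0.963 times (0.892 to 1.04). Matn2, a matrix protein of nerves (chr15:34306681-34436242), had 312, 436 and 405 CPM in telogen, anagen and UVB, against 26.7, 46.9 and 23.6 in melanocyte-marker nuclei. Aatk (chr11:120007311-120047183) had 402, 291 and 430 against 107, 46.9 and 47.2. Scn7a, a sodium channel of non-myelinating glia (chr2:66673426-66784910), had 245, 87.2 and 151 against 40.0, 10.2 and 23.6. For these 3 genes the lowest in-cluster value was above the highest melanocyte value. Anagen in-cluster and telogen melanocyte-marker nuclei had only 34419 and 74917 open calls in all, so values such as 87.2 and 40.0 rest on few calls. Adgrg6, the receptor that starts myelination, had 379, 58.1 and 201 against 0, 23.4 and 21.0, and Kcna1, a potassium channel, had 134, 116 and 84.8 against 0, 1.02 and 3.50. Ngfr, the neurotrophin receptor of immature and repair Schwann cells, was at 1.42 times (0.857 to 2.21) and S100b at 1.52 times (0.748 to 2.77) the level of remaining nuclei, intervals that include 1.

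Genes of axon contact and glial adhesion were higher by less, at 1.75 times (1.64 to 1.85) the remaining nuclei, with 10 of 23 genes at least 2 times higher (6.59% of all genes) and 2 at 0.5 times or less (14.5% of all genes). Gldn, which gathers sodium channels at nodes, was at 4.83 times (3.20 to 7.07), Chl1 at 4.65 times (3.62 to 5.91), Cadm2 at 3.03 times (2.30 to 3.91) and Lgi4, a secreted factor needed for myelination, at 2.88 times (2.14 to 3.81). Cntn1 was lower at 0.477 (0.205 to 0.947). The list of Schwann transcription factors was at 1.47 times (1.39 to 1.56). At 0.5 times or less was 1 of its 19 genes (14.5% of all genes), and 5 were at least 2 times higher (6.59% of all genes). Sox2 (9.43 times, 6.20 to 14.0), Pou3f1 (3.24 times, 2.16 to 4.69), Sox8 (2.95 times, 1.74 to 4.72) and Zfp536 (2.89 times, 2.47 to 3.36) were among them. Egr2, the factor that drives myelination, was at 0.852 times (0.543 to 1.28). Genes of neuregulin signalling (1.15 times, 1.08 to 1.23), of myelin lipid and sterol synthesis (1.02 times, 0.947 to 1.09) and housekeeping genes (0.99 times, 0.901 to 1.09) were near the level of remaining nuclei.

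**Figure D3:**
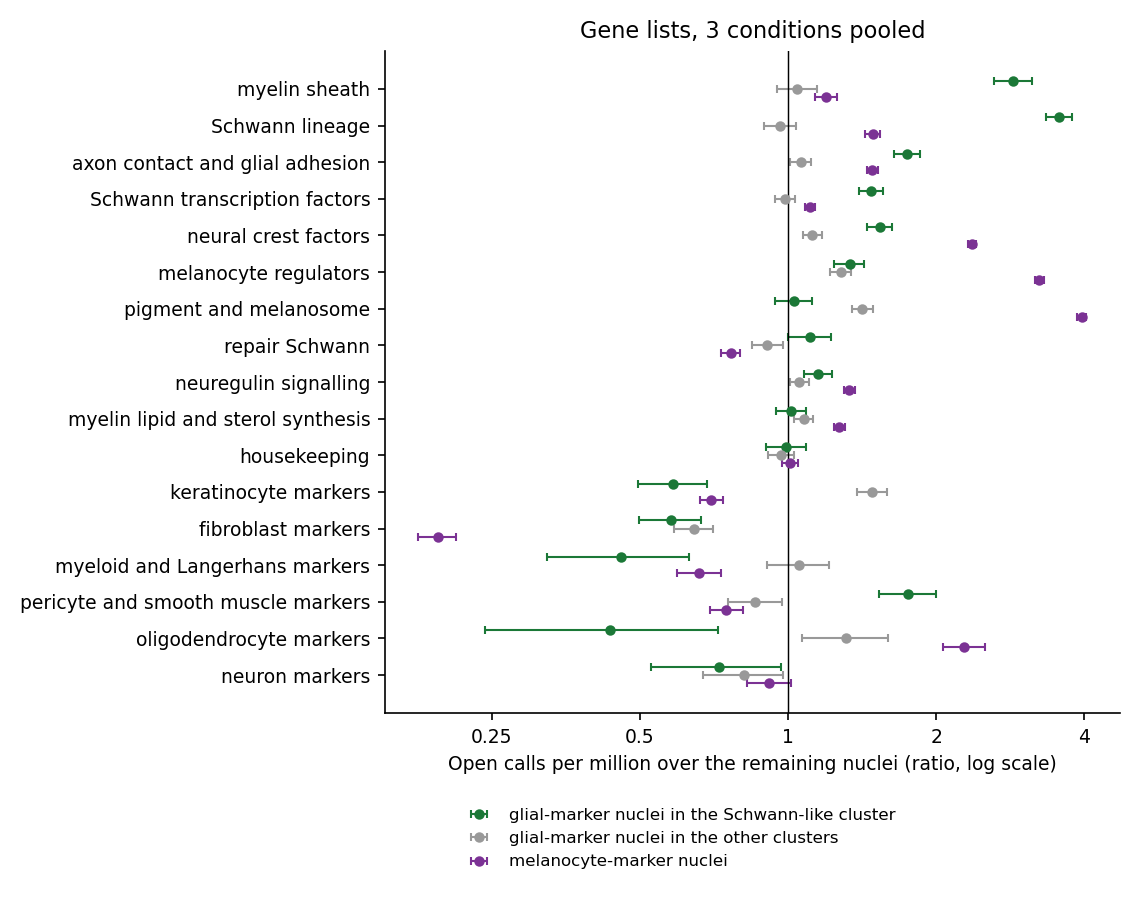
Ratio of CPM over the remaining nuclei (x axis, log scale) for gene lists (y axis) in in-cluster glial-marker, out-of-cluster glial-marker and melanocyte-marker nuclei, 3 conditions pooled, with 95% intervals for counting error. The in-cluster nuclei stand at 2.87 and 3.56 for the myelin sheath and Schwann lineage lists, where the out-of-cluster nuclei stand at 1.04 and 0.963.

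Markers of other cell types differed between the groups as well. Pooled over conditions, keratinocyte markers were at 387 CPM in in-cluster, 982 in out-of-cluster and 663 in remaining nuclei. In anagen the order differed, at 610 (from 21 calls), 377 and 391, while telogen and UVB kept the pooled order. Fibroblast markers were at 483, 538 and 836, and myeloid and Langerhans markers at 95.6, 219 and 209. Out-of-cluster fibroblast levels were 304, 1279 and 413 in telogen, anagen and UVB, against 612, 1093 and 782 in remaining nuclei. Pericyte and smooth muscle markers were higher in the in-cluster nuclei, at 576 against 282 and 329. Of that list's 11 genes 3 were at least 2 times higher than in remaining nuclei (6.59% of all genes) and 4 at 0.5 times or less (14.5% of all genes), and the median log2 ratio was -0.95, so the summed level and the median differed in sign. The higher genes were Cspg4 (3.31 times, 2.76 to 3.95), Mcam (4.19 times, 3.06 to 5.61) and Tagln (3.34 times, 1.39 to 6.91, from 8 calls). The lower genes were Notch3 (0.0873 times, 0.00221 to 0.490), Abcc9 (0.140 times, 0.0169 to 0.509), Rgs5 (0.358 times, 0.0430 to 1.31) and Myh11 (0.442 times, 0.120 to 1.14). The part of such cells in the in-cluster nuclei was not tested. Oligodendrocyte markers were at 37.7 against 86.9 in remaining nuclei, and only 4 of the 7 genes had a feature. Of these, Opalin and Nkx2-2 were at least 2 times higher (6.59% of all genes), with 3 and 7 calls. Enpp6 was at 0.109 times (0.0225 to 0.320), where 14.5% of all genes were at 0.5 times or less. The median log2 ratio was thus 0.34 while the summed level was lower. Neuron markers were at 116 against 160. Of 8 genes 2 were at least 2 times higher (6.59% of all genes) and 3 at 0.5 times or less (14.5% of all genes). The higher were Tubb3 (2.47 times, 1.44 to 4.00) and Snap25 (2.11 times, 1.03 to 3.87).

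Single genes outside the rule's markers were ranked by the end of the interval nearest to 1, among genes with the same direction in all 3 conditions. The first for all 630 nuclei over remaining nuclei were 4930544G11Rik, Egfl8, Kcna1, D130043K22Rik, Ghrh, Gjc3, Sntn, Stambp, Cfap99, Il25, Plxnb3 and Epo. Egfl8 (chr17:34613349-34616562) had 29 calls in in-cluster and 1 in out-of-cluster nuclei, with a ratio of 7.09 (4.28 to 11.6). Kcna1 had 37 and 2 calls and a ratio of 6.20 (4.04 to 9.41). Stambp, a deubiquitinase (chr6:83543206-83575826), had 61 and 11 calls and a ratio of 4.15 (3.11 to 5.51). Gjc3, a glial connexin (chr5:137950992-137963098), had 20 and 17 calls and a ratio of 4.85 (3.17 to 7.28). Plxnb3, a semaphorin receptor (chrX:73756556-73772510), had 19 and 2 calls and a ratio of 5.22 (2.92 to 9.09). Il25 (chr14:54932695-54935837) had 23 and 2 calls, and its window overlaps that of Cmtm5. Names such as Il25, Epo and Ghrh belong to the nearest annotated window and do not show that these genes are used in the nuclei.

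Single regions outside the marker windows are given as a description, since the clusters were made from them. Only regions with at least 20 open calls in the 630 nuclei were ranked. Ranked over remaining nuclei, the first was chr5:123270844-123271344 inside Wdr66, open in 51 of the 630 nuclei and 20 of the remaining ones (24.7 times, 14.5 to 43.8). It was open in 49 in-cluster nuclei (22.1%), of which 5 were telogen, 8 anagen and 36 UVB, and in 2 out-of-cluster nuclei. A pair of regions inside Ank3, which encodes the ankyrin of nodes and paranodes, followed the same pattern: chr10:69796822-69797322 was open in 23 in-cluster and 0 out-of-cluster nuclei, and chr10:69579474-69579974 in 32 and 1. The region chr19:58876905-58877405 inside Hspa12a was open in 45 and 3, and chr6:83542003-83542503, 953 bp from Stambp, in 31 and 1. The region chr10:128592809-128593309, 3424 bp from Erbb3 and outside its window, was open in 20 and 3. Each of the 12 highest regions was open in at least 20 in-cluster nuclei and in at most 3 out-of-cluster nuclei. In-cluster nuclei of UVB gave the most calls at each and were also the most numerous, and the part of their number was not tested.

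In comparison with melanocyte-marker nuclei the glial-marker nuclei had lower levels at pigment genes, which were not absent. In UVB, where most nuclei lay, pigment and melanosome genes were at 0.318 times (0.288 to 0.350) the melanocyte level in the in-cluster nuclei and at 0.431 times (0.408 to 0.456) in all glial-marker nuclei. Over the 3 conditions these genes were at 1406 CPM in the in-cluster nuclei and 1781 in all 630, against 1370 in remaining nuclei. Of 20 such genes 17 were at 0.5 times or less in the in-cluster nuclei, where 11.0% of all genes were, and 11 in all glial-marker nuclei, where 2.93% were. None of the 20 was at least 2 times higher, where 7.89% and 7.87% of all genes were. The melanocyte set was itself chosen by 14 markers, 10 of which are in this list, so these ratios are a description. The remaining nuclei hold none that met that rule, so their level was set in part by it too. Anagen and telogen gave 0.229 times (0.168 to 0.304) and 0.275 times (0.202 to 0.369) for the in-cluster nuclei.

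Mlana, a melanosome protein (chr19:29697541-29708447), had 0, 0 and 15.7 CPM in telogen, anagen and UVB in-cluster nuclei, against 240, 178 and 221 in melanocyte-marker nuclei. Tyrp1, a melanin enzyme (chr4:80834123-80851736), had 22.3, 0 and 37.7 against 254, 369 and 329. For Kit, the receptor for stem cell factor on melanocytes (chr5:75574987-75656722), the levels were 89.3, 0 and 56.5 against 561, 606 and 451. None of these values overlapped between the groups. Mlana, Tyrp1 and Kit, and Mitf and Dct below, are among the markers that chose the melanocyte set, so these values are a description. Mitf, the master regulator of pigment genes, was at 245, 407 and 223 against 1148, 697 and 1031, and its UVB ratio was 0.216 (0.168 to 0.275). Dct (chr14:118012790-118052246), whose promoter drives the label, was at 268, 378 and 396 against 1014, 837 and 996, a UVB ratio of 0.397 (0.328 to 0.478). It was nevertheless 2.00 times (1.69 to 2.36) the level of the remaining nuclei, and Pax3, a neural crest factor of melanocyte precursors, was 2.87 times (2.41 to 3.39) that level. Dct and Pax3 are markers of the melanocyte rule, and the remaining nuclei hold none that met it. The 12 in-cluster nuclei that met it were kept, so these ratios were set in part by that choice.

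Of 13 neural crest factors with enough calls 1 was at least 2 times higher than in melanocyte-marker nuclei of UVB, where 7.89% of all genes were. At 0.5 times or less were 5, where 11.0% of all genes were. Sox10 (chr15:79154913-79164490) was at 201, 145 and 166 in in-cluster and at 66.7, 213 and 122 in melanocyte-marker nuclei, so the groups overlapped, and the UVB ratio was 1.36 (0.973 to 1.88). Zeb2 at 1.09 (0.890 to 1.32) and Ets1 at 0.894 (0.756 to 1.05) had intervals that include 1. Nr2f2 was higher at 3.34 (2.12 to 5.27), and Nr2f1, with 18 against 7 calls, had too few to count. Pax3 at 0.30 (0.245 to 0.364), Mef2c at 0.265 (0.181 to 0.376) and Ednrb, the endothelin receptor of melanoblasts, at 0.156 (0.0564 to 0.349) were lower. The list as a whole was at 0.638 (0.595 to 0.683), and that of melanocyte regulators at 0.430 (0.395 to 0.467), with 6 of 14 genes at 0.5 times or less (11.0% of all genes). Mitf, Kit, Mc1r and Pax3 of the regulator list are among the markers that chose the melanocyte set. Both list values, since Pax3 is also a neural crest factor, were thus set in part by that choice.

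On the glial side, in-cluster nuclei of UVB were at 1.84 times (1.63 to 2.06) the melanocyte level over the myelin sheath genes and at 2.45 times (2.25 to 2.67) over the Schwann lineage genes. Among genes with at least 30 calls, 4 of 11 myelin sheath and 9 of 19 Schwann lineage genes were at least 2 times higher, where 7.89% of all genes were. In the same lists 1 and 3 were at 0.5 times or less, where 11.0% of all genes were. Matn2 (17.2 times, 11.3 to 27.1), Adgrg6 (9.58 times, 5.91 to 16.0), Aatk (9.12 times, 6.61 to 12.7) and Cnp (6.99 times, 3.85 to 13.1) were among the higher genes. Cdh19 (0.467 times, 0.215 to 0.906), Fabp7 (0.415 times, 0.146 to 0.965) and Tspan2 (0.340 times, 0.181 to 0.589) were among the lower, although the first 2 are markers of Schwann cell precursors. For all 630 nuclei the list ratios were 1.18 (1.07 to 1.30) and 1.38 (1.28 to 1.49), with 2 of 11 and 6 of 19 genes at least 2 times higher against 7.87% of all genes, and 0 and 3 at 0.5 times or less against 2.93%. Without UVB tag numbers 23 and 24 these list ratios were 1.02 (0.911 to 1.14) and 1.13 (1.04 to 1.24). The medians of the log2 ratios were 0.42 and -0.03 against -0.05 over all genes, so for the Schwann lineage list the summed level and the median differed in sign. In the in-cluster nuclei the medians were 0.91 and 0.77 against -0.10. For the out-of-cluster nuclei alone the list ratios were 0.793 and 0.760, on the other side of 1, and the medians were -0.51 and -0.44.

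**Figure D4:**
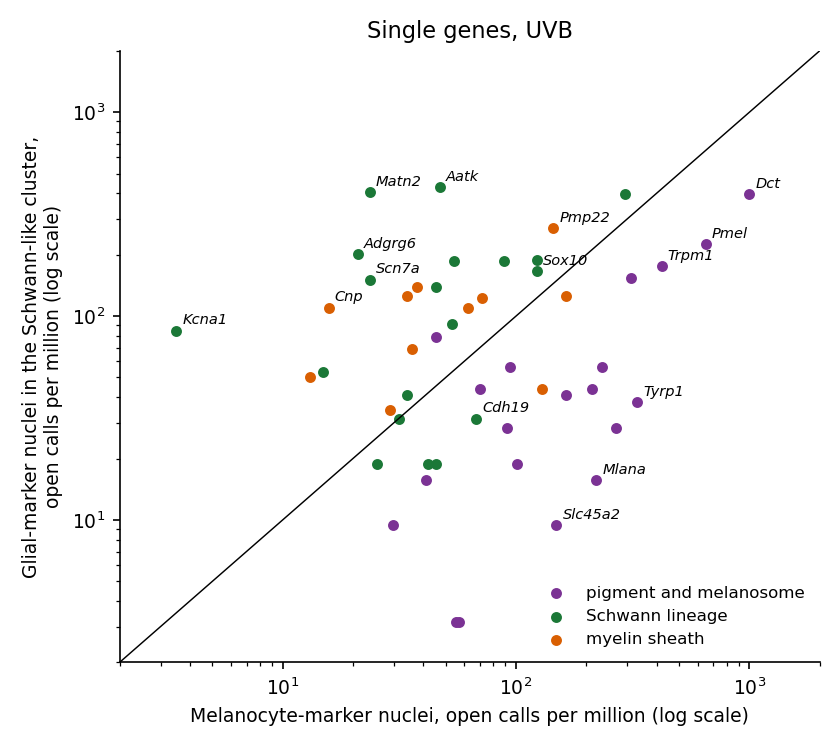
Level in CPM in melanocyte-marker (x axis) and in-cluster glial-marker nuclei (y axis) of UVB, both on log scales, for genes of 3 lists with at least 30 calls in both sets together and calls in each. The line marks equal levels. Most pigment and melanosome genes lie below it, while Matn2, Aatk, Adgrg6 and Kcna1 lie far above it.

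Ranked over single genes in the same way, a ranking added after the data had been seen, the in-cluster nuclei differed most from melanocyte-marker nuclei at Prima1, Kcna1, Cfap99, Col27a1, Lamb1, Aoah, Pdlim4, Wdr66, Ank3, Rimbp2, Musk and Prss23 on the higher side. Col27a1, a fibrillar collagen (chr4:63214009-63334991), was at 580, 639 and 609 CPM against 80.1, 27.0 and 30.6. Lamb1, a laminin chain of the Schwann cell basement membrane (chr12:31265146-31329644), was at 379, 261 and 493 against 40.0, 21.4 and 35.0. Prima1, the membrane anchor of acetylcholinesterase (chr12:103194453-103242719), was at 223, 232 and 148 against 13.3, 4.58 and 2.62. None of these overlapped. The lower side held Eya1, Enpp6, Tmem51, Fstl4, Mlana, Kit, Slc45a2, Tyrp1, Mcoln3, Bace2, Gpr143 and Sgip1. Of these, Mlana, Kit, Slc45a2, Tyrp1 and Gpr143 are among the markers that chose the melanocyte set. When all 630 nuclei were ranked, the higher side was instead led by 4930578I06Rik, Spink5, Pdlim4, Il1rl2, Mab21l4 and Sbsn, followed by Ly6d, Pou2f3, Prima1, Klk9, Hoxa2 and Dsp. Several of these are keratinocyte genes: Spink5 had 52 of its 55 calls and Dsp 76 of its 81 in out-of-cluster nuclei. The lower side was led by Gpr143, Oca2, Bloc1s5, Slc24a5, Slc7a8 and Tyrp1, and went on with Tfcp2, Kit, Car1, Syt4, Slc45a2 and Trpm1. Gpr143, Oca2, Slc24a5, Tyrp1, Kit, Slc45a2 and Trpm1 are among the markers that chose the melanocyte set, which helped to set their place.

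Single regions also differed from melanocyte-marker nuclei. The region chr4:62275037-62275537, 5106 bp from Slc31a2, was open in 46 in-cluster, 5 out-of-cluster and 3 melanocyte-marker nuclei, and chr2:131876646-131877146 in 34, 8 and 2. Others came from the out-of-cluster nuclei, such as chr5:103737696-103738196 inside Aff1, open in 5, 27 and 1. Regions with fewer than 20 open calls in the 630 nuclei were not ranked, so regions closed in these nuclei could not appear on the lower side. Among the ranked regions, the lowest ratio was that of chr19:29702939-29703439 inside Mlana. It was open in 2, 20 and 247 nuclei (0.212 times, 0.130 to 0.328, for all 630). A region 2268 bp from Dct, chr14:118054264-118054764, was open in 7, 20 and 235. In-cluster nuclei were open in at most 7 cases at each of the 6 lowest ranked regions.

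Between conditions, the 630 nuclei differed, and so did their mixture of cells, whose part in the differences was not tested beyond the in-cluster and out-of-cluster values given here. Myelin sheath genes were at 566, 564 and 891 CPM in telogen, anagen and UVB, and UVB was 1.58 times (1.30 to 1.95) anagen and 1.57 times (1.32 to 1.88) telogen. With nuclei thinned to 500 open features, UVB over anagen was 0.803 (0.394 to 1.76). It was 1.13 (0.911 to 1.41) with the Schwann-like cluster in place of the rule. Of 10 myelin genes with enough calls 4 were at least 2 times higher in UVB than in anagen, where 7.90% of all genes were, and 0 were at 0.5 times or less, where 3.75% were. Over telogen it was 4 of 10, where 5.94% of all genes were higher and 5.98% lower. Schwann lineage genes were at 1011, 1128 and 1603. Anagen and telogen stood at the same myelin level, 0.996 times (0.774 to 1.28), with 0 of 2 genes past either fold, where 6.15% of all genes were higher and 7.40% lower. Within the in-cluster nuclei the myelin level was 1495, 1395 and 1391, and UVB was 0.998 times (0.740 to 1.37) anagen and 0.931 times (0.718 to 1.22) telogen. The Schwann lineage level was 3392, 2731 and 2842 there, and 0.838 times (0.705 to 1.00) telogen in UVB. Of 7 myelin genes with enough calls in the in-cluster nuclei 3 were at least 2 times higher in UVB than in anagen, where 13.0% of all genes were, and 0 were at 0.5 times or less, where 5.74% were. Within the out-of-cluster nuclei the myelin level was 383, 390 and 601, and UVB was 1.54 times (1.18 to 2.05) anagen and 1.57 times (1.24 to 2.01) telogen. The summed UVB level was thus higher among the out-of-cluster nuclei and not among the in-cluster nuclei, of which telogen and anagen had 28 and 25. The difference between these ratios was not tested.

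**Figure D5:**
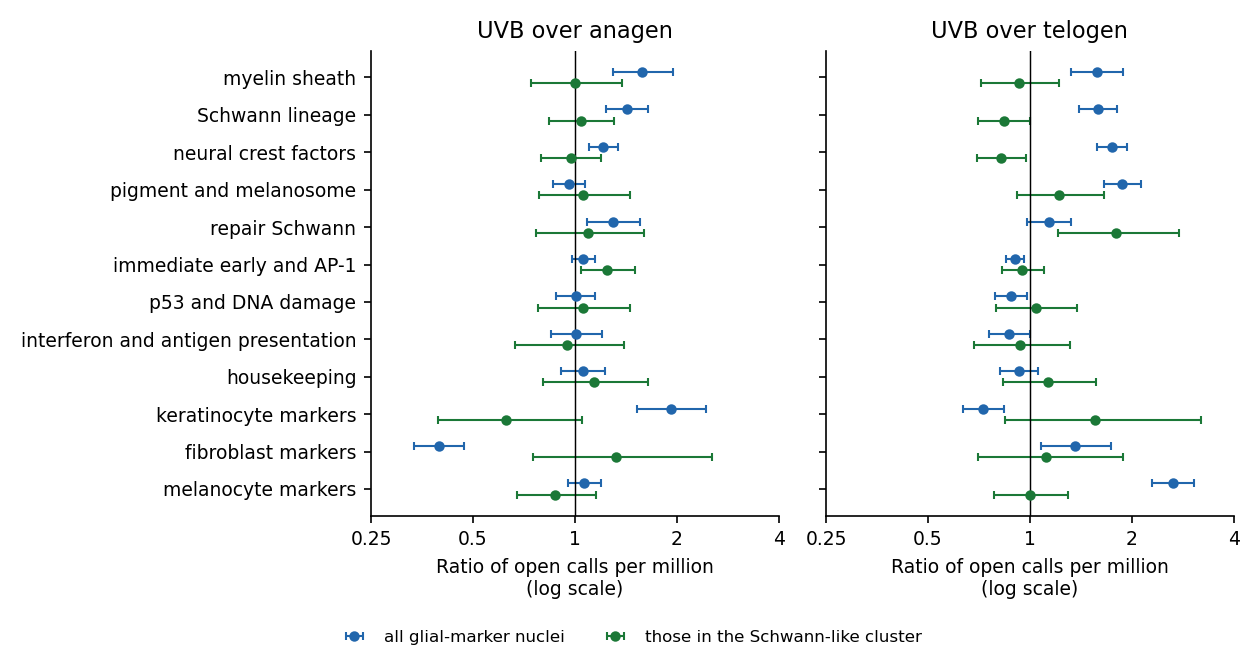
Ratio of CPM between conditions (x axis, log scale), UVB over anagen on the left and UVB over telogen on the right, for gene and marker lists (y axis), in all glial-marker nuclei and in those of the Schwann-like cluster, with 95% intervals for counting error. The myelin sheath list stands at 1.58 and 1.57 in all glial-marker nuclei and at 0.998 and 0.931 in the in-cluster nuclei, with wider intervals.

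Markers of other cells differed between conditions too. Melanocyte markers in the 630 nuclei were at 805, 1993 and 2125 in telogen, anagen and UVB, keratinocyte markers at 1099, 418 and 801, fibroblast markers at 327, 1122 and 445, and myeloid and Langerhans markers at 393, 171 and 119. In the in-cluster nuclei melanocyte markers were at 1651, 1888 and 1655 and fibroblast markers at 446, 378 and 499. Among the single genes that differed most between conditions, Dct was 5.62 times (3.50 to 9.60) higher in UVB and 5.17 times (3.04 to 9.24) higher in anagen than in telogen, Pkp1, a plakophilin of keratinocytes, was 9.75 times (2.62 to 81.8) higher in UVB than in anagen, and Col1a1 was 6.72 times (3.48 to 14.3) higher in anagen than in telogen. Syk, an immune cell kinase, was at 0.0393 times (0.0101 to 0.111) in UVB over telogen. Other genes of these rankings were Fabp12, Anapc15, Itpkc, Abca12 and Rab27b (higher in UVB than anagen), Enpp2, Tmem30c, Prkg2, Vgll2 and Fam181b (higher in UVB than telogen), Inpp5d, Cytip, Neurl3 and Itgb2 (lower in UVB than telogen) and Gfpt2, Cgnl1, Zfhx4 and Fam20a (higher in anagen than telogen). Gfpt2, Cmah, Crcp and C1rl were lower in UVB than in anagen, and Pkp1, Lfng, BC024139, Plbd1, Itpkc and Esrp1 lower in anagen than in telogen.

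Myh6, a cardiac myosin gene, ranked first among genes lower in UVB than in anagen, at 0.0109 times (0.00219 to 0.0334). It had 317 CPM in anagen and 110 in telogen against 3.46 in UVB. In nuclei that were not selected the gene was also lowest in UVB, at 544, 212 and 10.2 in anagen, telogen and UVB in remaining nuclei and at 173, 440 and 0 in melanocyte-marker nuclei. Its neighbour Myh7 was at 161, 66.2 and 1.15 in glial-marker nuclei. The Myh7 ratio of UVB over anagen was lower still but with a wider interval, 0.00717 (0.000176 to 0.0429). Telogen and anagen shared a library that did not hold UVB, so that library and condition cannot be told apart for UVB.

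Genes of p53 and DNA damage were at 1606, 1404 and 1412 CPM in telogen, anagen and UVB glial-marker nuclei, and in in-cluster nuclei UVB was 1.05 times (0.779 to 1.45) anagen. Genes of interferon and antigen presentation stood at 0.951 times (0.665 to 1.40). Immediate early and AP-1 genes were at 4954, 3777 and 4708 in in-cluster nuclei, where UVB was 1.25 times (1.04 to 1.50) anagen and 0.95 times (0.825 to 1.10) telogen. In all 630 nuclei UVB was 1.06 times (0.982 to 1.15) anagen. Repair Schwann genes, which injured nerves switch on, were at 602, 988 and 1080 in in-cluster nuclei, so that UVB was 1.79 times (1.21 to 2.76) telogen and 1.09 times (0.768 to 1.61) anagen. The telogen value rested on 27 calls. No single gene of that list named here stood apart: Jun was at 1.57 times (0.850 to 3.24) and Mcam at 1.55 times (0.564 to 5.93) in UVB over telogen. Cell cycle genes were at 1071, 465 and 920, and the anagen value rested on 16 calls.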

How the data were processed

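Nuclei of 3 conditions were read from whole-number count matrices that the authors deposited, with 315694 features of 500 bp shared by the conditions. Bowtie2, SAMtools, MACS2 and the build mm10 (GRCm38) appear, without version numbers, among the tools and builds of the submitters' processing notes. Of the deposited counts 61.1% are 2 and none is above 4, so a feature with a count above 0 was taken as 1 open call. Second copies of a nucleus (2326 of 14674 barcodes) were dropped. Gene windows were RefSeq (GRCm38.p6) gene bodies with 2 kb at either end, and 402 of 405 list and marker genes matched. Single values of a few list genes are not reported here. The lists and the members were chosen with earlier results of these data known. Nuclei were clustered on 163517 features by latent semantic indexing and the Leiden algorithm (resolution 0.6) without the marker windows (scikit-learn 1.9.0, leidenalg 0.10.2). A cluster was called Schwann-like only from the marker list. Levels are CPM, here open calls per 1000000 open calls of the set, ratios carry exact binomial 95% intervals, and shares carry Clopper-Pearson intervals (scipy 1.17.1), all for counting error only. The melanocyte-marker set met the same rule on 14 melanocyte markers and not the glial rule. Called means a ratio of at least 2 or at most 0.5 with at least 30 open calls in both sets together. A gene with 0 calls in 1 set was placed at 3 calls there and never called in the direction that the 0 goes against. Named genes were ranked by the interval end nearest to 1, the 12 first over the other sets and the 6 first between conditions, and list members by role. Ratio code was tested on simulated data. Alternatives changed the rule, the windows, the depth, the barcodes and the unit.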

Additional observations from a re-analysis of the deposited data

How the results depend on the processing

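Anagen had the lowest share of glial-marker nuclei in all 14 settings that gave shares, and UVB the highest in 12. Telogen was highest without Erbb3 and Foxd3 and with features within 1 kb of either gene end. This order is of the values without their intervals. The intervals of all 3 conditions overlapped when thinned to 500 open features and with features within 1 kb of either gene end. Those of anagen and telogen also overlapped without Mbp and Erbb3 and with the Schwann-like cluster in place of the rule. The settings on tag numbers left out UVB nuclei only. Shares below are in the order telogen, anagen, UVB, followed by the UVB ratios over melanocyte-marker nuclei and the ratios of UVB over anagen that left the main interval. The cause of each move was not tested. With 5 or more open features the shares were 1.62, 0.533 and 1.92%, with Schwann lineage at 1.74, myelin sheath at 1.40 and pigment at 0.395, and immediate early genes at 1.22. With a share at least 4 times the pooled one they were 2.84, 1.49 and 3.6%, with ratios of 1.79, 1.45 and 0.385. Without Erbb3 and Foxd3 they were 4.11, 2.16 and 3.24%, with pigment at 0.293. With features within 1 kb of either gene end they were 0.833, 0.506 and 0.580%, with Schwann lineage at 1.11, pigment at 0.305, immediate early genes at 1.73 and myelin at 2.29 between conditions. Thinned to 500 open features, which left out 1997 nuclei, they were 0.690, 0.531 and 1.04%, with ratios of 1.69, 1.47 and 0.321 and immediate early genes at 0.822, and myelin between conditions turned to 0.803. With the Schwann-like cluster in place of the rule telogen was 3.57%, the ratios were 2.23, 1.68 and 0.326, immediate early genes stood at 1.22 and myelin at 1.13. Without nuclei above 3 times the median telogen and UVB were 4.20 and 5.64%, and immediate early genes 0.932. Without nuclei that also met the melanocyte rule UVB was 5.59% and pigment 0.356. Without UVB tag number 19 UVB was 7.85%, with ratios of 1.61 for Schwann lineage and 1.32 for myelin sheath.

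The following settings were chosen after seeing the data. Without Mbp and Erbb3 the shares were 1.08, 0.719 and 1.42%, the ratios 2.17, 1.68 and 0.348, and immediate early genes 1.76. Without the feature over the Pa2g4 promoter UVB was 5.42% and pigment 0.402. Without UVB tag numbers 23 and 24 UVB was 5.54% beside 5.44% in telogen, Schwann lineage was 1.13 and myelin sheath 1.02. In-cluster nuclei alone gave 2.45, 1.84 and 0.318, immediate early genes at 1.25, and myelin between conditions at 0.998, on the other side of 1. Out-of-cluster nuclei alone gave 0.760 for Schwann lineage and 0.793 for myelin sheath, both reversed, and 0.497 for pigment. The median log2 ratio of the Schwann lineage list over melanocyte-marker nuclei had another sign in 10 settings and that of myelin sheath in 1. Keeping all barcodes, and counts in place of open calls, moved no share or list ratio out of its interval. No paired analysis was possible because each condition is 1 sample and the technical replicates of UVB are not separated in the files. The in-cluster nuclei of telogen and anagen were few, 28 and 25.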

Other observations

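The telogen nuclei of tag number 1 were few and deep, with 50 nuclei, a median of 8131.5 open features, 22% glial-marker nuclei and 2% in the Schwann-like cluster. Across UVB tag numbers with at least 50 nuclei the share of glial-marker nuclei ran from 0 to 18.5%.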
